A study of Mus musculus with 20 samples.

Results

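The non-coding RNA transcripts of the array were taken as the non-control probes whose accession is a RefSeq non-coding RNA record, leaving out probes placed on chromosomes X and Y. This gave 1148 of 39429 non-control probes, for 1019 accessions and 1008 of the 30119 gene names on the array. A further 68 such probes lay on X or Y and were left out. By the RefSeq annotation, 836 of the 1148 probes measured long non-coding RNAs and 224 measured transcribed pseudogenes, while 57 belonged to genes that RefSeq now lists as protein coding. Bone-marrow-derived macrophages of C57BL/6 mice were grown for 6 days with M-CSF from L929-conditioned medium and then kept without serum, with 200 ng/mL of Salmonella lipopolysaccharide (LPS) or without it. The genotypes were MyD88/TRIF double-knockout (double-KO), MyD88-KO, TRIF-KO and wild type (WT), each studied at 1, 2, 4, 8 and 16 h. Each of the 20 two-colour arrays set LPS-treated against untreated cells of 1 genotype and time, so the values below are log2 ratios of LPS over untreated unless a level is named. A genotype therefore had 5 arrays, 1 per time point, and its spread mixes time with sample.

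LPS is sensed by TLR4, which signals through the adapters MyD88 and TRIF. The MyD88 arm is known for early NF-kB-driven inflammatory genes and the TRIF arm for IRF3 and type I interferon genes. Long non-coding RNAs are transcribed like messenger RNAs and are often spliced and polyadenylated. Some act on a neighbouring gene in cis, some build nuclear bodies, and some serve mainly as the precursor of small nucleolar RNAs (snoRNAs) or microRNAs held in their introns or exons. Host transcripts of snoRNAs are known to be exported and then degraded by nonsense-mediated decay.

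The probes that carry the main results are shown first, 5′ to 3′ and with mm9 coordinates, so that the measured stretch of each transcript is known. The first 4 were among the largest rises in WT or MyD88-KO cells, the next 4 had patterns that differed by eye between genotypes, and the last had the largest mean fall in WT.
4933432I03Rik (chr14:103386662-103386721, minus strand): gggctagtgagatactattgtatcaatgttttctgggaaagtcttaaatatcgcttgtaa
Morrbid (chr2:128142039-128142098, minus strand): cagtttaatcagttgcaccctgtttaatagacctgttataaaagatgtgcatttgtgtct
Gm9895 (chr19:29143699-29143758, plus strand): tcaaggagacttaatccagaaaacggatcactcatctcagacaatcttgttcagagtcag
Gdap10 (chr12:33511682-33511741, plus strand): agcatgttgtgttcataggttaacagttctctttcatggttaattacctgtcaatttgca
U90926 (chr5:92641050-92641819, minus strand): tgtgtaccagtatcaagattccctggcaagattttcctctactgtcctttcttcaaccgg
Il1bos (chr2:129201243-129201302, plus strand): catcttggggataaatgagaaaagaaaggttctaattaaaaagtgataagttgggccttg
Gm12216 (chr11:53598991-53599050, minus strand): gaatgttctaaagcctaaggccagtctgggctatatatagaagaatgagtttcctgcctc
AW011738 (chr4:155580044-155580103, plus strand): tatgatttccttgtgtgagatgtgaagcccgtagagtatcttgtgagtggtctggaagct
Olfr75-ps1 (chr11:73219396-73219455, minus strand): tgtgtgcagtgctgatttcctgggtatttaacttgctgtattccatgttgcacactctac
The 60 bases of the U90926 probe are placed over a longer interval by the files.

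Of the 1148 probes, 705 (61.4%, 624 symbols) passed the detection filter (a channel well above background on 3 or more arrays) and were tested, against 72.3% of the other probes. A total of 311 were never above background, 132 were so on 1 or 2 arrays only, and 395 were so on all 20 arrays. The tested members were dim: their median untreated level was 7.69 in double-KO, 7.73 in MyD88-KO, 7.69 in TRIF-KO and 7.77 in WT cells on the log2 intensity scale, against 9.26, 9.25, 9.27 and 9.26 for the other tested probes. Macrophage markers were above background in the untreated channel of every array for 6 of 6 genes. So were 6 of 6 neutrophil and precursor markers in MyD88-KO, TRIF-KO-labelled and WT cells, and 5 of 6 in double-KO cells. T cell markers were so for 3 of 6 genes in each genotype, and B cell markers for 2 or 3 of 5. Summed levels in WT cells were 19.8 to 20.1 for macrophage, 15.2 to 15.7 for neutrophil and precursor, and 11.6 to 11.9 for T cell markers. Ticam1, the gene for TRIF, had an untreated level of 7.28 ± 0.044 in double-KO, 10.5 ± 0.094 (n = 4) in MyD88-KO, 10.8 ± 0.28 in TRIF-KO and 10.6 ± 0.19 in WT cells (SD, n = 5 elsewhere). The arrays labelled TRIF-KO thus carried Ticam1 at the WT level, and every value given for them below is that of the library labelled TRIF-KO. The Myd88 probe read between 13.8 and 15 in all genotypes and does not check the deletion. LPS-treated RNA carried Cy5 on 19 arrays. The MyD88-KO array of 2 h had it in Cy3, and its sign was turned.

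LPS moved many non-coding transcripts in the 3 genotypes with at least 1 adapter by their labels. In double-KO cells the number depended on the scaling. In MyD88-KO cells 93 members were higher and 129 lower, in cells labelled TRIF-KO 72 were higher and 84 lower, and in WT cells 96 were higher and 131 lower (limma, Benjamini-Hochberg adjusted p under 0.05 over all tested probes). Over all tested probes the shares were 17.1% higher and 18.9% lower in MyD88-KO, 13% and 15.9% in cells labelled TRIF-KO, and 17% and 19.3% in WT, so the members' shares were 13.2% and 18.3%, 10.2% and 11.9%, and 13.6% and 18.6%, near or below that background. In double-KO cells 1 member was higher and 0 lower, with 0.159% and 0% of all probes called, and 46 members had an unadjusted p under 0.05. The fit takes 1 spread per probe, shared by all 20 arrays. The double-KO test thus used a spread that also held the scatter of the responding genotypes. The SD of ratios on an array was 0.127 to 0.196 in double-KO and 0.209 to 0.927 in the other genotypes. The deposited ratios called 7 members in double-KO cells, and scaling between arrays, which gives each array the same spread of ratios, called 56 higher and 11 lower there and 40 higher and 63 lower in WT. The 1 member called in double-KO cells without scaling, from the background-corrected intensities, was Rn4.5s, a small rodent-specific RNA, with ratios of 0.52, 0.23, 0.48, 0.69 and 0.44 from 1 to 16 h in double-KO cells (0.47 ± 0.07, SE, adjusted p = 0.032). It also rose in MyD88-KO cells (0.24 ± 0.07, adjusted p = 0.02) and in WT cells (0.37 ± 0.08, adjusted p = 0.005, over 4 arrays because the WT 4 h spot was an outlier and was dropped), its spot was saturated on 3 arrays, and its double-KO call was lost when any of the double-KO arrays was left out.

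Most members that moved did so by less than 2-fold. Among those called, 16 rose and 4 fell at least 2-fold in MyD88-KO, 11 and 8 in cells labelled TRIF-KO, and 18 and 6 in WT cells. These counts were not taken over all called probes, so small changes are not shown to be particular to the members. The number of members past a 2-fold rise was 1, 14, 32, 48 and 40 at 1, 2, 4, 8 and 16 h in MyD88-KO cells, 2, 12, 18, 36 and 45 in cells labelled TRIF-KO, and 5, 31, 40, 36 and 37 in WT cells. In double-KO cells it was 0, 0, 0, 2 and 3. As shares these were 0%, 0%, 0%, 0.284% and 0.426% of members, against 0.00361%, 0.0542%, 0.148%, 0.423% and 0.383% of other tested probes. Members past a 2-fold fall numbered 0, 7, 34, 48 and 29 in MyD88-KO, 4, 12, 16, 33 and 14 in cells labelled TRIF-KO, 6, 16, 36, 34 and 10 in WT, and 0 at each time in double-KO cells. Of the other tested probes, 0.329%, 2.9%, 6.88%, 9.54% and 7.27% were past a 2-fold rise from 1 to 16 h in MyD88-KO cells, against 0.142%, 1.99%, 4.54%, 6.81% and 5.67% of members. In cells labelled TRIF-KO the shares were 0.607%, 2.53%, 4.35%, 6.68% and 5.58% of other probes, against 0.284%, 1.7%, 2.55%, 5.12% and 6.38%. In WT cells the shares were 0.746%, 4.6%, 8.38%, 7.45% and 4.56% of other probes, against 0.709%, 4.4%, 5.68%, 5.11% and 5.25% of members. For 2-fold falls in MyD88-KO cells they were 0.0615%, 0.856%, 5.22%, 9.76% and 6.46% of other probes, against 0%, 0.993%, 4.82%, 6.81% and 4.11%. Cells labelled TRIF-KO had 0.126%, 1.58%, 5%, 8.92% and 6.04%, against 0.567%, 1.7%, 2.27%, 4.69% and 1.99% of members. WT cells had 0.232%, 2.7%, 8.29%, 9.37% and 3.86%, against 0.851%, 2.27%, 5.11%, 4.83% and 1.42% of members. Of the members called higher in MyD88-KO cells, 45.2% were also called in WT, and of those called higher in WT 43.8% were also called in MyD88-KO. Over all tested probes these shares were 52.7% and 53%. The shares of lower calls in common were 68.2% and 67.2%, against 63.1% and 62% over all tested probes. For cells labelled TRIF-KO and WT they were 69.4% and 52.1% of higher calls and 76.2% and 48.9% of lower calls, against 73.6% and 56.3%, and 73% and 60.2%, over all tested probes. A total of 28 members (3.97%) were higher and 51 (7.23%) lower in all 3 genotypes, against 6% and 8.35% of all tested probes, and 0 members were called in opposite directions.

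Only the swapped array separates a mean ratio from a dye effect: with a dye term 24, 8 and 19 members were called in MyD88-KO, TRIF-KO-labelled and WT cells, and with slide, which holds 1 or 2 genotypes, as a fixed block 40, 53 and 0. Leaving out 1 array gave 120 (8 h) or 118 (16 h) in MyD88-KO, 102 (2 h), 69 (8 h) or 96 (16 h) in cells labelled TRIF-KO, and 147 (4 h) or 148 (8 h) in WT; the other arrays moved no count by over 1.5 times.

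**Figure D1:**
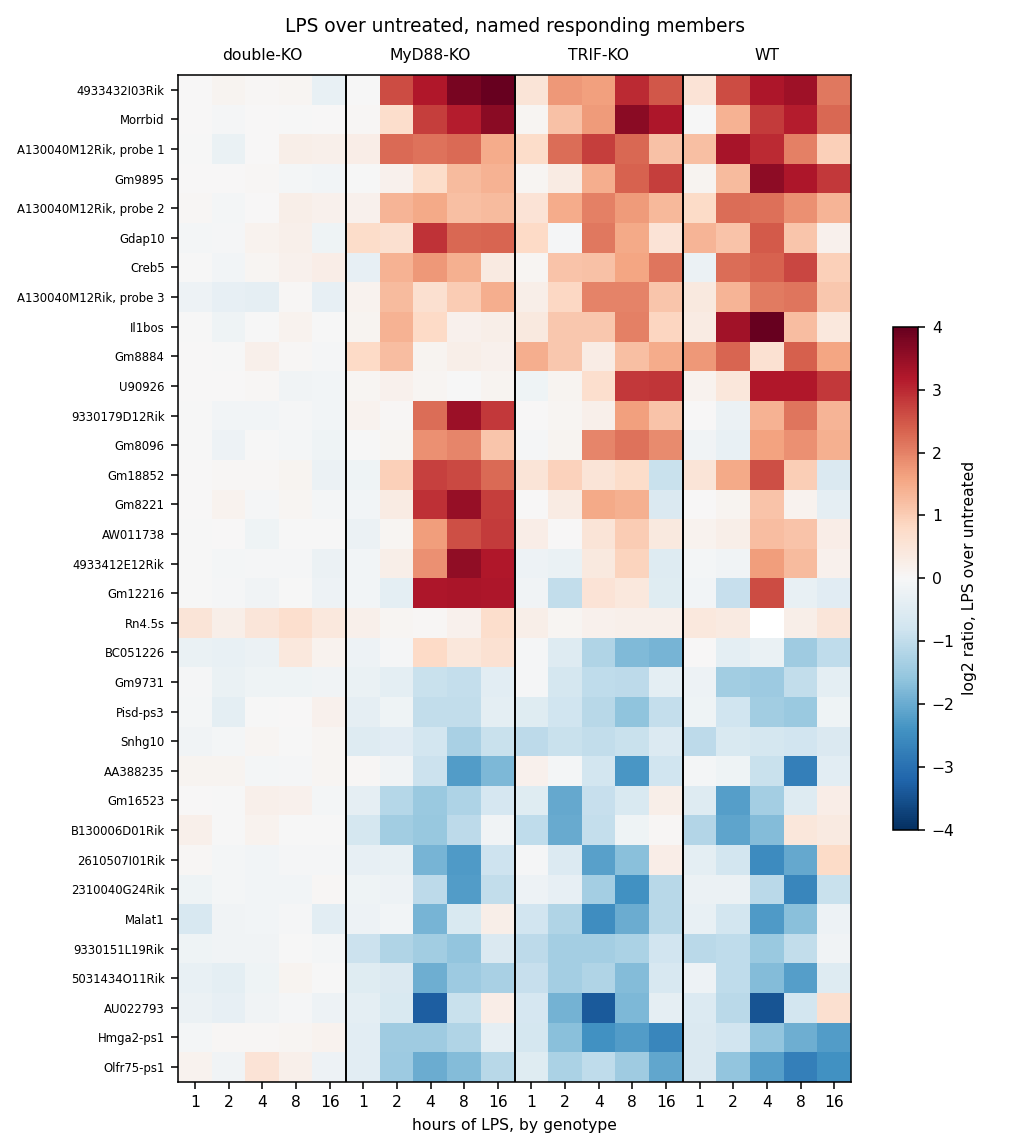
Log2 ratio of LPS over untreated (colour, clipped at ±4) for the 34 named responding probes (rows) on each of the 20 arrays (columns, hours of LPS within genotype); white is 0 or, for Rn4.5s at 4 h in WT, no value. The double-KO columns lie between -0.63 and 0.69, while the other genotypes reach from -3.46 to 4.24.

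The transcript with the largest mean rise in MyD88-KO and WT cells was 4933432I03Rik, a long non-coding RNA on chromosome 14; in cells labelled TRIF-KO Morrbid had the largest. Its ratios at 1, 2, 4, 8 and 16 h were -0.01, 2.62, 3.21, 3.79 and 4.24 in MyD88-KO cells, 0.52, 1.74, 1.65, 2.99 and 2.50 in cells labelled TRIF-KO, and 0.56, 2.62, 3.23, 3.39 and 2.11 in WT cells. In double-KO cells they stayed between -0.31 and 0.11. The means were 2.77 ± 0.33 (adjusted p = 1.5e-04), 1.88 ± 0.33 (adjusted p = 0.0012) and 2.38 ± 0.33 (adjusted p = 2.0e-04) in MyD88-KO, TRIF-KO-labelled and WT cells (5 arrays each, SE from the shared spread). The transcript rose from 2 h in all 3 genotypes, and at 16 h the MyD88-KO array was the highest of them.

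Morrbid, a myeloid RNA known in mice to repress the neighbouring pro-apoptotic gene Bcl2l11 in cis, rose in the 3 genotypes. Its ratios were 0.06, 0.71, 2.76, 3.13 and 3.61 in MyD88-KO cells. They were 0.07, 1.16, 1.71, 3.60 and 3.23 in cells labelled TRIF-KO and -0.02, 1.41, 2.81, 3.13 and 2.30 in WT cells. No array was up at 1 h, and all 3 genotypes were past 1.7 by 4 h, with means of 2.05 ± 0.33, 1.95 ± 0.33 and 1.93 ± 0.33 (adjusted p = 9.0e-04, 9.7e-04 and 7.8e-04). The 3 probes of A130040M12Rik also rose in each of these genotypes, by 0.90 to 1.69 in MyD88-KO, 1.23 to 1.83 in cells labelled TRIF-KO and 1.41 to 2.09 in WT cells, with the WT peak at 2 h for the strongest probe (3.30). Mir22hg, the host of miR-22, and Creb5, whose gene RefSeq lists as coding for a CREB-family transcription factor, were further members called higher in all 3.

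Some transcripts were called in WT cells and not in MyD88-KO cells. U90926 had ratios of 0.08, 0.16, 0.07, -0.01 and 0.11 in MyD88-KO cells, against -0.17, 0.10, 0.66, 2.83 and 2.86 in cells labelled TRIF-KO and 0.13, 0.46, 3.21, 3.21 and 2.84 in WT cells. It was thus flat on all 5 MyD88-KO arrays (0.08 ± 0.39, adjusted p = 0.89), although its LPS channel was above background on only 1 of them. WT cells were up from 4 h and cells labelled TRIF-KO from 8 h, with means of 1.26 ± 0.39 (adjusted p = 0.026) in the cells labelled TRIF-KO and 1.97 ± 0.39 (adjusted p = 0.0019) in WT.
Mirt2, described in mice as an LPS-inducible brake on TRAF6 signalling, had its high ratios late: its 8 h and 16 h ratios were -0.29 and 0.29 in MyD88-KO cells, 0.83 and 2.33 in cells labelled TRIF-KO, and 1.40 and 2.98 in WT cells. Its mean was called in WT alone, close to the threshold (0.79 ± 0.29, limma adjusted p = 0.046), and its signal was dim. Gm9895, a long non-coding RNA on chromosome 19, reached 1.38 at its highest in MyD88-KO, 2.76 in cells labelled TRIF-KO and 3.57 in WT cells. Its mean passed the test in cells labelled TRIF-KO (1.40 ± 0.30, adjusted p = 0.0035) and in WT (2.20 ± 0.30, adjusted p = 1.7e-04) but not in MyD88-KO cells (0.70 ± 0.30, adjusted p = 0.078).

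Other transcripts had their largest rises in MyD88-KO cells. Gm12216, a long non-coding RNA near Irf1, had ratios of -0.09, -0.40, 3.24, 3.27 and 3.22 in MyD88-KO cells. In cells labelled TRIF-KO they were -0.15, -1.0, 0.56, 0.42 and -0.49, and in WT cells -0.11, -0.93, 2.62, -0.30 and -0.44. The WT ratio was up at 4 h and back at or under 0 by 8 h, while the MyD88-KO ratio stayed at its 4 h height to 16 h.
4933412E12Rik had ratios of 1.83, 3.56 and 3.21 at 4, 8 and 16 h in MyD88-KO cells, 0.40, 0.90 and -0.51 in cells labelled TRIF-KO, and 1.68, 1.25 and 0.17 in WT cells. Gm8221, listed as a pseudogene next to Apol11b, had 2.92, 3.49 and 2.76 in MyD88-KO cells, 1.52, 1.42 and -0.59 in cells labelled TRIF-KO, and 1.13, 0.15 and -0.36 in WT cells. These 3 transcripts passed the test in MyD88-KO cells (1.85 ± 0.43, adjusted p = 0.0051; 1.74 ± 0.34, adjusted p = 0.0024; 1.88 ± 0.35, adjusted p = 0.002) and not in the other 2 genotypes. Gdap10, 9330179D12Rik and Gm18852 were also called in MyD88-KO cells (1.78, 1.73 and 1.69), and all 3 were called in WT cells too (1.24, 0.94 and 1.00). Gdap10 was also called in cells labelled TRIF-KO (0.99). A ratio depends on the untreated level too, and Gm18852 and AW011738 were lower in untreated MyD88-KO than in untreated WT cells. So were 5 of 8 probes of 7 listed LPS response genes such as Tnf and Cxcl10 (median -1.61), against 3.53% of all tested probes. The part of untreated levels in these ratios was not tested.

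The test of the difference itself called none of these patterns. For MyD88-KO minus WT, 0% of all probes and 0 members were called in either direction, with 82 members at an unadjusted p under 0.05 and the lowest adjusted p at 0.16. Gm12216 differed by 1.68 ± 0.60 (adjusted p = 0.26), Gm8221 by 1.67 ± 0.50 (adjusted p = 0.2) and U90926 by -1.89 ± 0.55 (adjusted p = 0.2). For cells labelled TRIF-KO minus WT, 0% of all probes and 0 members were called in either direction, 52 members had an unadjusted p under 0.05, and the lowest adjusted p was 0.59. The arrays of 1 h, when few transcripts had moved, enter these means. Without the MyD88-KO array of 1 h, 12 members differed between MyD88-KO and WT, among them Gm8221 (2.11 ± 0.46, adjusted p = 0.044), D130020L05Rik (1.28 ± 0.195, adjusted p = 0.022), I730030J21Rik (-1.37 ± 0.229, adjusted p = 0.022) and Gm8884 (-1.27 ± 0.285, adjusted p = 0.046). That fit called 12 of the 705 tested members and 487 of all 28387 tested probes. This setting was 1 of 10 that left out an array, and the other 9 gave 0. These genes were chosen after their values were seen.

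**Figure D2:**
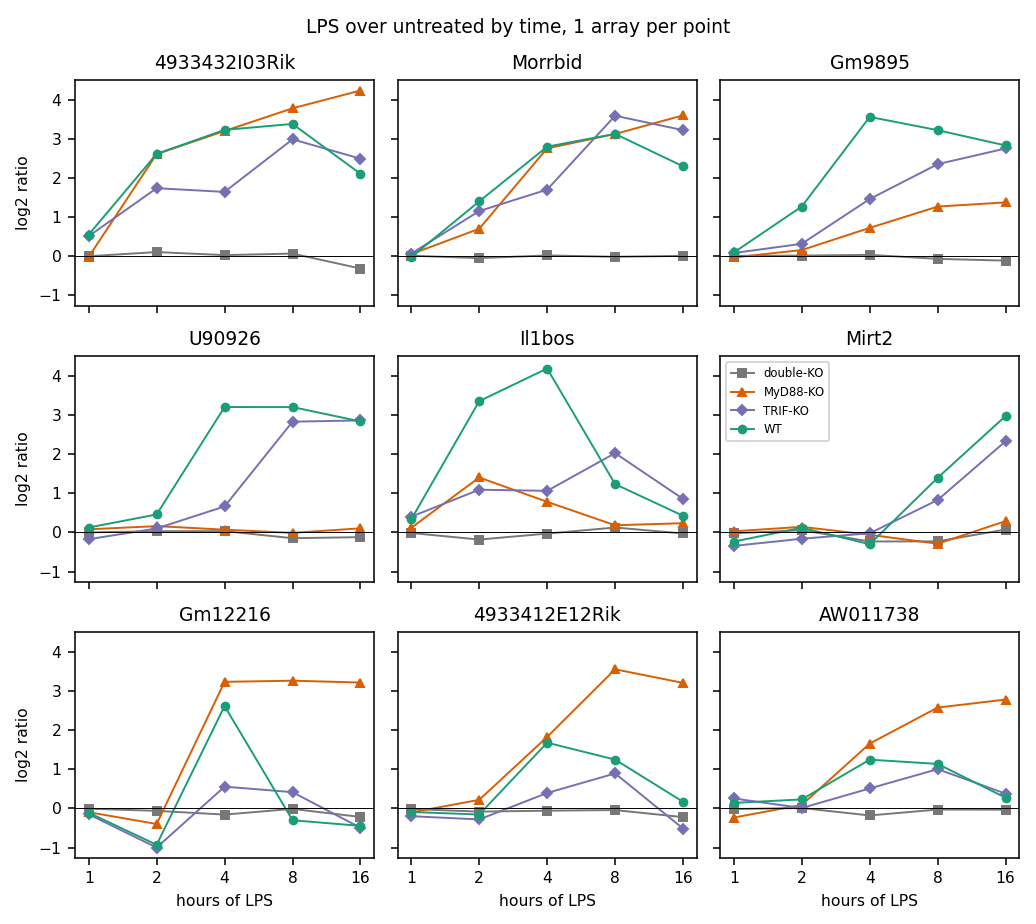
Log2 ratio of LPS over untreated (vertical axis) against hours of LPS (horizontal axis, doubling steps) for 9 non-coding transcripts, 1 array per point, by genotype. The double-KO lines stay near 0; U90926 and Mirt2 are flat in MyD88-KO and high in WT at 16 h, while Gm12216, 4933412E12Rik and AW011738 are highest in MyD88-KO at 8 and 16 h.

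Several of these transcripts have a probe near that of a coding gene that LPS also moved. Distances are between probes, taken to the nearest coding-gene probe that passed the detection filter. The Il1bos probe lies 10.8 kb from the probe of Il1b, the interleukin-1β gene, on the opposite strand. Il1bos had ratios of 0.12, 1.41, 0.78, 0.18 and 0.24 in MyD88-KO cells, 0.40, 1.09, 1.06, 2.03 and 0.86 in cells labelled TRIF-KO, and 0.34, 3.36, 4.19, 1.24 and 0.42 in WT cells. It peaked at 4 h in WT and was back near its start by 16 h. Il1b itself had 3.77, 5.25, 2.26, 1.81 and 1.09 in MyD88-KO, 4.10, 6.15, 5.66, 5.03 and 4.74 in cells labelled TRIF-KO, and 3.84, 5.99, 5.52, 5.29 and 5.19 in WT cells, and so was still high in WT at 16 h. Il1bos was dim: its LPS channel was above background on 0 double-KO, 2 MyD88-KO, 4 TRIF-KO-labelled and 5 WT arrays, and the untreated channel on no MyD88-KO array, and its mean in MyD88-KO cells did not pass the test (0.54 ± 0.37, adjusted p = 0.26).
The Gm12216 probe lies 7.12 kb from that of Irf1, an interferon-response transcription factor, on the other strand. Irf1 had ratios of 0.60, 2.03, 3.45, 2.90 and 1.54 in MyD88-KO cells, 1.04, 2.12, 1.44, 0.89 and 0.15 in cells labelled TRIF-KO, and 0.97, 2.56, 2.58, 0.34 and -0.17 in WT cells. Irf1 was thus up on the 1 h and 2 h arrays, where Gm12216 was not, and both were higher in MyD88-KO than in WT at 8 and 16 h.
The AW011738 probe lies 6.34 kb from that of Isg15, an interferon-induced ubiquitin-like modifier. AW011738 had 1.66, 2.58 and 2.79 at 4, 8 and 16 h in MyD88-KO, 0.51, 1.01 and 0.38 in cells labelled TRIF-KO, and 1.25, 1.14 and 0.28 in WT cells, and Isg15 had 3.56, 3.62 and 3.95 in MyD88-KO, 1.88, 1.55 and 0.58 in cells labelled TRIF-KO, and 3.05, 2.21 and 0.90 in WT cells. Both were highest at 4 h in WT and at 16 h in MyD88-KO. The 4933432I03Rik probe lies 10.6 kb from that of Kctd12 on the same strand, and Kctd12 passed the test in none of the 3 genotypes (-0.15, 0.48 and 0.46 in MyD88-KO, TRIF-KO-labelled and WT cells).

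**Figure D3:**
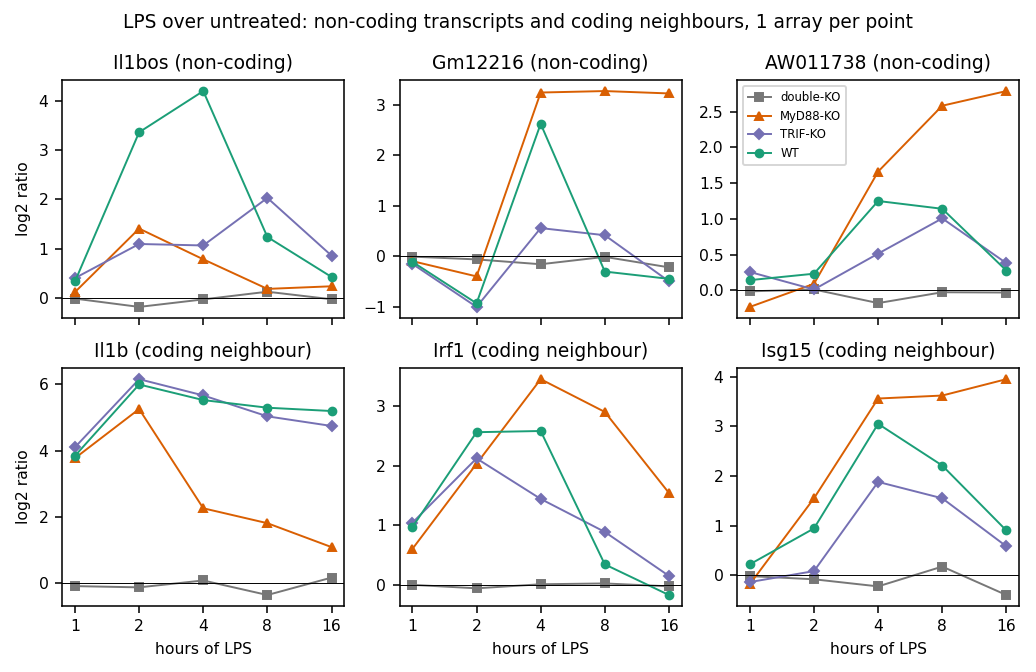
Log2 ratio of LPS over untreated against hours of LPS for 3 non-coding transcripts (top row) and the nearest tested coding-gene probe of each (bottom row), 1 array per point, with a vertical scale of its own in each panel. Il1bos falls back by 16 h in WT while Il1b stays above 5, and Gm12216 and Irf1 are both higher in MyD88-KO than in WT at 8 and 16 h.

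Across the 268 tested members with a coding probe within 20 kb, the mean ratios of member and neighbour correlated with r = 0.35 in MyD88-KO, 0.21 in cells labelled TRIF-KO and 0.30 in WT cells, as a description over pairs that share the arrays. When a member was higher, its neighbour was called higher in 37.5%, 25.8% and 28.9% of cases, against 18.7%, 15.7% and 19.8% of all neighbours. When it was lower, the neighbour was lower in 28.6%, 24.2% and 33.3%, against 18.7%, 16.8% and 21.6%. The 300-base promoter windows of RefSeq (GRCm38.p6) were searched on both strands for GGGNNTTTCC, a form of the NF-kB site, and GAAANNGAAA, a form of the interferon response element. Of all 32851 promoters 1.63% and 3.44% held them, against 8 and 15 of the 424 matched members that were tested. Among members called higher, GGGNNTTTCC was in 0 of 57 promoters in MyD88-KO, 0 of 43 in cells labelled TRIF-KO and 1 of 47 in WT, and GAAANNGAAA was in 2 of 57, 0 of 43 and 0 of 47. The 2 MyD88-KO matches were Gm12216 and Rab10os. The Gm12216 promoter is shown because this transcript stayed at its 4 h height in MyD88-KO cells, with the GAAANNGAAA match (read on the other strand) in capitals.
Gm12216 promoter (chr11:53859207-53859506, minus strand, GRCm38.p6): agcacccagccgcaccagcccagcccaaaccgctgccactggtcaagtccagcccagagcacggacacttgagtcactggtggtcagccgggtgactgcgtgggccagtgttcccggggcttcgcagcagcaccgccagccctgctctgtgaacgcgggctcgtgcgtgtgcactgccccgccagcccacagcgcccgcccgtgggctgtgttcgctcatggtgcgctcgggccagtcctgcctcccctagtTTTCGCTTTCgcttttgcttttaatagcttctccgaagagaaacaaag

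The transcript with the largest mean fall in WT was Olfr75-ps1, an olfactory receptor pseudogene. The 61 tested probes named as pseudogenes had 5 higher and 11 lower in MyD88-KO, 12 and 7 in cells labelled TRIF-KO, and 14 and 12 in WT cells. The shares over all tested probes were 17.1% and 18.9%, 13% and 15.9%, and 17% and 19.3%. Olfr75-ps1 had ratios of -0.43, -1.45, -1.98, -1.74 and -1.11 in MyD88-KO cells, -0.47, -1.26, -1.0, -1.43 and -2.07 in cells labelled TRIF-KO, and -0.59, -1.58, -2.19, -2.73 and -2.43 in WT cells. In double-KO cells they were 0.13, -0.15, 0.56, 0.19 and -0.21. Every array of the 3 responding genotypes lay below every double-KO array, with means of -1.34 ± 0.20, -1.25 ± 0.20 and -1.90 ± 0.20 (adjusted p = 6.0e-04, 7.2e-04 and 3.6e-05). Hmga2-ps1, a pseudogene of the chromatin protein gene Hmga2, fell by 0.97, 1.93 and 1.42 in MyD88-KO, TRIF-KO-labelled and WT cells. Its WT ratios went on falling to -2.24 at 16 h, while the MyD88-KO ratio was back at -0.35.
Other falls were brief. AU022793 had -3.29 at 4 h and 0.28 at 16 h in MyD88-KO, -3.37 and -0.36 in cells labelled TRIF-KO, and -3.46 and 0.64 in WT cells. Gm16523 and B130006D01Rik were lowest at 2 h in WT (-2.19 and -2.09) and at or above 0 by 16 h (0.27 and 0.35). 9330151L19Rik fell on all 15 arrays of the 3 genotypes, with means of -1.12 ± 0.10, -1.15 ± 0.10 and -0.95 ± 0.10 (adjusted p = 3.2e-05, 1.9e-05 and 5.2e-05). BC051226 fell in cells labelled TRIF-KO (-1.08 ± 0.25, adjusted p = 0.0055), with a ratio of -1.85 at 16 h, against 0.60 in MyD88-KO and -1.03 in WT cells at that time, where the means were 0.33 and -0.62 and did not pass the test. Its differences from WT did not pass the test in MyD88-KO or in TRIF-KO-labelled cells (adjusted p = 0.27 and 0.77).

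The abundant nuclear RNAs had distinct courses. Malat1, an RNA of nuclear speckles, had ratios of -0.20, -0.12, -1.86, -0.62 and 0.23 in MyD88-KO cells, -0.77, -1.2, -2.50, -1.97 and -1.10 in cells labelled TRIF-KO, and -0.29, -0.75, -2.28, -1.67 and -0.20 in WT cells. The 4 h array was the lowest in each genotype, and the mean passed the test in cells labelled TRIF-KO (-1.51 ± 0.22, adjusted p = 4.0e-04) and WT (-1.04 ± 0.22, adjusted p = 0.0028) but not in MyD88-KO cells (-0.52 ± 0.22, adjusted p = 0.079). Neat1, the scaffold of paraspeckles, had 1.04 at 2 h and -1.22 at 4 h in MyD88-KO cells and 1.01 and -0.94 in WT cells, whereas cells labelled TRIF-KO had -0.03 and 0.73. Its mean was called in none of them (-0.42, 0.38 and -0.07 in MyD88-KO, TRIF-KO-labelled and WT cells). Of 14 probes for 7 paraspeckle protein genes, 2 were higher and 1 lower in MyD88-KO, 5 and 0 in cells labelled TRIF-KO, and 8 and 0 in WT cells, with medians of 0.02, 0.19 and 0.27. All tested probes had 17.1% higher and 18.9% lower in MyD88-KO, 13% and 15.9% in cells labelled TRIF-KO, and 17% and 19.3% in WT.
Tug1, a nuclear and cytoplasmic long non-coding RNA, was higher in each genotype on 2 of its 3 probes (0.58 and 0.69 in MyD88-KO, 0.59 and 0.59 in cells labelled TRIF-KO, 0.71 and 0.66 in WT), and its other probe was not called. Norad, which sequesters Pumilio proteins, was called on 1 of 4 probes in MyD88-KO (0.37), 1 in cells labelled TRIF-KO (0.46) and 2 in WT cells (0.43 and 0.71). For Pvt1, the neighbour of Myc, 1 of 2 probes was lower in MyD88-KO (-0.73 ± 0.24, adjusted p = 0.028) and WT (-0.67 ± 0.24, adjusted p = 0.04), with ratios at 16 h of -2.27 and -1.29, against 0.33 in cells labelled TRIF-KO. Over the 14 tested probes of 8 abundant nuclear and structural RNAs, 3 were higher and 2 lower in MyD88-KO, 3 and 1 in cells labelled TRIF-KO, and 5 and 2 in WT cells. Terc, the telomerase RNA, was 1 of the 5 higher in WT, by 0.50 (limma adjusted p = 0.044). The shares over all tested probes given for the paraspeckle genes apply here too.

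Among host transcripts of snoRNAs, all 15 member probes, for 12 of the 22 listed genes, were tested, with 0 higher and 5 lower in MyD88-KO, 5 higher and 1 lower in cells labelled TRIF-KO, and 0 higher and 6 lower in WT cells. Most of the 15 thus did not pass the test in any one genotype, and over all tested probes 18.9%, 15.9% and 19.3% were lower and 17.1%, 13% and 17% higher in these genotypes. The medians were -0.21, 0.09 and -0.22, against medians between -0.02 and 0.00 over all tested probes. Snhg10 fell on all 15 arrays of these genotypes, with ratios from -1.29 to -0.45 in MyD88-KO, -1.05 to -0.55 in cells labelled TRIF-KO and -1.03 to -0.59 in WT, while double-KO arrays lay between -0.15 and 0.09. Snhg7 had ratios of -0.39, -0.31, -0.93, -0.96 and -0.49 in MyD88-KO cells, -0.51, -0.54, -0.29, 0.17 and 0.37 in cells labelled TRIF-KO, and -0.63, -0.67, -0.90, -0.47 and -0.20 in WT cells. It was below 0 on every MyD88-KO and WT array (means -0.62 ± 0.12 and -0.57 ± 0.12, adjusted p = 0.0019 and 0.0022), and in the cells labelled TRIF-KO it was above 0 at 8 and 16 h.
Snhg12 fell in MyD88-KO (-0.51) and WT (-0.44), Snhg6 (-0.44) and Snhg18 (-0.21) in MyD88-KO, and Snhg3 (-0.28), 1 of 2 Snhg16 probes (-0.42) and 1 of 3 Gas5 probes (-0.23) in WT. In cells labelled TRIF-KO, Dancr (0.44), Snhg17 (0.36), Snhg5 (0.39) and 2 Gas5 probes (0.58 and 0.48) rose, each with its highest ratio at 8 or 16 h. For TRIF-KO-labelled minus WT cells none of the 15 passed the test of the difference (median 0.40). For double-KO minus WT, 4 were higher (Snhg10 0.72, Snhg7 0.69, Snhg3 0.51 and 1 Gas5 probe 0.35), against 6.21% of all tested probes. With the double-KO and WT arrays alone this comparison called 0 members. Of 14 probes for 13 nonsense-mediated decay factors, 3 were higher and 2 lower in MyD88-KO, 2 and 2 in cells labelled TRIF-KO, and 3 and 1 in WT cells. The shares over all tested probes given for the snoRNA hosts apply here too.

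**Figure D4:**
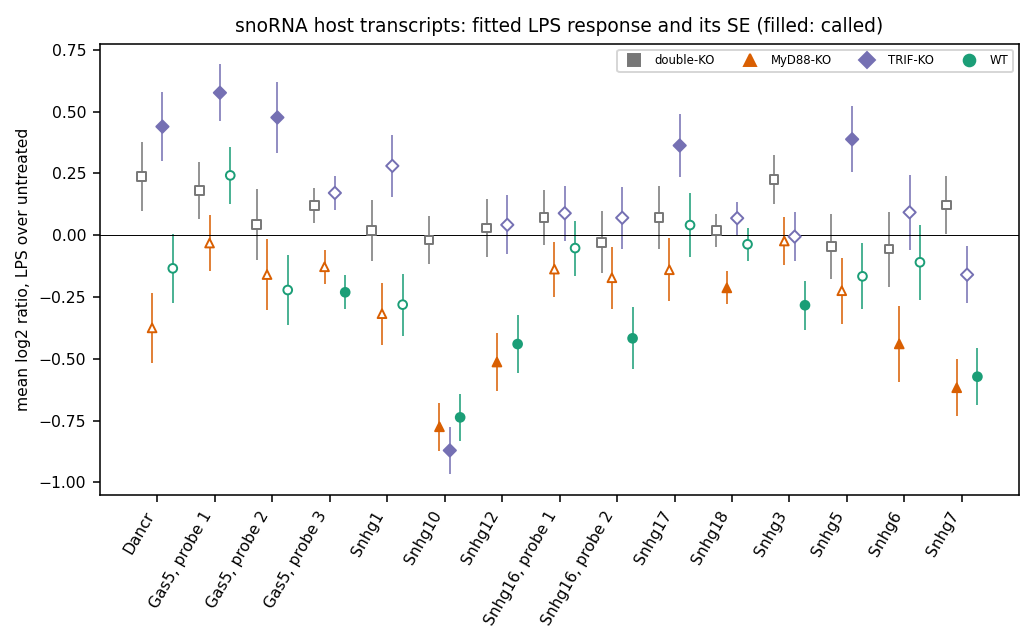
Fitted mean log2 ratio of LPS over untreated and its standard error (vertical axis) for the 15 probes of snoRNA host transcripts (horizontal axis), by genotype, 5 arrays each; filled symbols passed the test. Snhg10 is below 0 in MyD88-KO, TRIF-KO-labelled and WT cells, and the filled symbols above 0 are all of cells labelled TRIF-KO.

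MicroRNA host transcripts moved one by one. Of 17 listed genes 10 had a member probe (12 probes), and 11 probes passed the filter, Mir9-3hg being left out. The list also holds Mirt1 and Mirt2, which are not microRNA hosts. In MyD88-KO cells 2 of the 11 were higher and 1 lower, in cells labelled TRIF-KO 2 and 2, and in WT cells 2 and 1. Mirt1 was the 1 lower in MyD88-KO (-0.37) and 1 of the 2 lower in cells labelled TRIF-KO (-0.26). Mirt2 was 1 of the 2 higher in WT (0.79). The shares over all tested probes were 17.1% and 18.9%, 13% and 15.9%, and 17% and 19.3%. The mature microRNAs of the 3 hosts with a value described here are shown from RefSeq (GRCm38.p6), with the seed, bases 2 to 8, in capitals. The microRNAs themselves were not measured.
mmu-miR-22-3p: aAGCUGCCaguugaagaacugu
mmu-miR-17-5p: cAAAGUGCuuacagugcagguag
mmu-miR-20a-5p: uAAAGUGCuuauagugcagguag
mmu-miR-18a-5p: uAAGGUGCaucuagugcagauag
mmu-miR-19a-3p: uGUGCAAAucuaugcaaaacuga
mmu-miR-19b-3p: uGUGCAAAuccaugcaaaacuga
mmu-miR-92a-3p: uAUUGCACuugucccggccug
mmu-miR-15a-5p: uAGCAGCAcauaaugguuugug
mmu-miR-16-5p: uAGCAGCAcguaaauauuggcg
By seed, miR-17 and miR-20a share one, miR-19a and miR-19b share another, and miR-15a and miR-16 a further one. Mir22hg, the host of miR-22, had ratios of 0.11, 0.98, 0.29, 1.33 and 0.74 in MyD88-KO cells, 0.47, 0.59, 1.37, 1.43 and 0.13 in cells labelled TRIF-KO, and 0.99, 1.73, 0.84, 1.84 and 0.36 in WT cells. It was above 0 on all 15 arrays, with means of 0.69 ± 0.16, 0.80 ± 0.16 and 1.15 ± 0.16 (adjusted p = 0.0057, 0.0028 and 2.3e-04). Mir17hg, the host of the miR-17 to miR-92a cluster known for driving proliferation, had -0.16, 0.29, 0.02, -0.04 and -0.15 in MyD88-KO cells, -0.49, 0.69, 1.19, 1.91 and 0.00 in cells labelled TRIF-KO, and -0.45, 1.80, 0.55, 0.73 and -0.32 in WT cells. It was flat in MyD88-KO, highest at 8 h in cells labelled TRIF-KO and at 2 h in WT, and its mean was called in cells labelled TRIF-KO alone (0.66 ± 0.23, adjusted p = 0.047).
Dleu2, which holds miR-15a and miR-16-1, fell slightly in cells labelled TRIF-KO (-0.25 ± 0.09, adjusted p = 0.04) and WT (-0.26 ± 0.09, adjusted p = 0.032), with 16 h ratios of -0.78 and -0.68, against -0.02 in MyD88-KO cells. Of 21 probes for 14 proteins that process or use microRNAs, 2 were higher and 6 lower in MyD88-KO, 4 and 5 in cells labelled TRIF-KO, and 2 and 6 in WT cells. The shares over all tested probes given for the microRNA hosts apply here too.

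Imprinted non-coding RNAs, which are expressed from 1 parental chromosome, were measured on 13 probes of 8 listed genes. The 4 probes of Meg3 and Ipw were not well above background on 3 arrays and were not tested. Of the 9 tested probes, 2 were higher and 3 lower in MyD88-KO, 1 and 0 in cells labelled TRIF-KO, and 1 and 3 in WT cells. Over all tested probes the shares were 17.1% and 18.9%, 13% and 15.9%, and 17% and 19.3%. H19 was 1 of the 2 higher in MyD88-KO cells, by 0.18 (limma adjusted p = 0.019). Airn, which silences Igf2r in cis, was higher on 1 of its 2 probes (0.80 in MyD88-KO, 0.50 in cells labelled TRIF-KO and 1.00 in WT, adjusted p = 0.0011, 0.012 and 1.5e-04), and its other probe had 0.15, -0.18 and 0.18 and was not called. Both probes of Kcnq1ot1, which silences a neighbouring imprinted cluster, fell in MyD88-KO (-0.39 and -0.57) and WT cells (-0.57 and -0.75), and neither was called in cells labelled TRIF-KO (0.03 and -0.22). Peg13, expressed from the paternal copy, had 0.42, -0.82, -1.82 and -2.38 from 2 to 16 h in MyD88-KO cells, 0.52, -0.18, -1.02 and -0.98 in cells labelled TRIF-KO, and 0.64, -0.85, -1.97 and -1.60 in WT cells. It was above 0 at 2 h and below 0 from 4 h in each genotype. The 14 tested probes of 9 listed non-coding RNAs described in immune cells, several of them named above, had 4 higher and 1 lower in MyD88-KO, 5 and 3 in cells labelled TRIF-KO, and 4 and 3 in WT cells. The shares over all tested probes were 17.1% and 18.9%, 13% and 15.9%, and 17% and 19.3%. Nron, known to hold the transcription factor NFAT in the cytoplasm, moved by 0.14 ± 0.05 in MyD88-KO cells (adjusted p = 0.036).

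The test of double-KO minus WT called 57 members higher and 32 lower, against 6.21% and 6.53% of all probes (8.09% and 4.54% of members). A positive difference here mostly belongs to a transcript that LPS lowered in WT. The largest were Olfr75-ps1 (2.01 ± 0.28, adjusted p = 0.0016) and Hmga2-ps1 (1.47 ± 0.31, adjusted p = 0.011). The largest negative ones were 4933432I03Rik (-2.40 ± 0.46, adjusted p = 0.0081), Gm9895 (-2.22 ± 0.42, adjusted p = 0.0072) and the first A130040M12Rik probe (-2.06 ± 0.34, adjusted p = 0.0036). Time points pair double-KO arrays with the others poorly, and without the time block 15 members were called. With the double-KO and WT arrays alone the count was 0, without the arrays labelled TRIF-KO 32, and leaving out 1 array gave 27 (double-KO 8 h), 31 (double-KO 4 h), 31 (WT 4 h), 36 (WT 8 h) or 41 (WT 2 h) and at most 113.

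Over the 15 arrays of MyD88-KO, TRIF-KO-labelled and WT cells, the ratio rose with time in 45 members and fell in 35, against 5.16% and 6.79% of all probes (6.38% and 4.96% of members). Morrbid had the steepest rise, 0.82 ± 0.11 per doubling of time (adjusted p = 5.2e-04), followed by 4933432I03Rik (0.63), Gm9895 (0.62), 9330179D12Rik (0.59) and U90926 (0.56). Thap6, listed as a transcribed pseudogene, had the steepest fall, -0.59 ± 0.09 per doubling (adjusted p = 0.0013). Its ratios at 1 h were 0.44, 1.17 and 1.31 in MyD88-KO, TRIF-KO-labelled and WT cells and at 16 h -1.13, -0.94 and -0.97, so an early rise became a fall, while its mean over time was called in none of them. Peg13 (-0.56), 3300005D01Rik (-0.45), AA388235 (-0.44) and Rnu3b1, a U3 snoRNA that acts in ribosomal RNA processing (-0.39), followed. Without the 1 h array labelled TRIF-KO 51 members were called, and without all arrays labelled TRIF-KO 19.

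Levels in untreated cells also differed between genotypes. Against WT, 75 members were higher and 65 lower in double-KO cells (15.3% and 10.6% of all probes), 43 and 14 in MyD88-KO cells (6.12% and 3.53%), and 1 and 1 in cells labelled TRIF-KO (0.314% and 0.257%, namely Rps4l at 0.55 and 1 Kcnq1ot1 probe at -0.70). The split depends on scaling: from the deposited processed intensities it was 45 higher and 130 lower in double-KO and 18 and 20 in MyD88-KO cells. Of the 5 double-KO arrays 4 filled 1 slide; the counts in double-KO and MyD88-KO cells were 39 and 14 with slide as a fixed block, 59 and 6 with scan day, and 51 and 5 without the time block. Leaving out 1 array gave 21 (MyD88-KO 8 h), 26 (MyD88-KO 16 h), 35 (MyD88-KO 4 h), 27 (WT 8 h), 36 (WT 1 h) or 37 (WT 4 h) in MyD88-KO cells.

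Gas5 gave the largest difference, and its 3 probes disagreed. The probe sequences, in order along the transcript, are as follows.
Gas5 probe 1 (chr1:162966369-162966428, plus strand): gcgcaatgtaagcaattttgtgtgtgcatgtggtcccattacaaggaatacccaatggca
Gas5 probe 2 (chr1:162967350-162967409, plus strand): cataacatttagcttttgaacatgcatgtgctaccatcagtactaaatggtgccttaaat
Gas5 probe 3 (chr1:162968608-162968667, plus strand): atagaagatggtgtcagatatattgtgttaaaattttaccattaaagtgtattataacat
Probe 1 read 8.58, 8.77, 8.84, 8.96 and 9.43 in untreated double-KO cells, against 9.72, 10.01, 10.73, 10.77 and 11.25 in WT (log2 intensity, 1 to 16 h). Probe 3 read 10.08, 13.13, 12.94, 13.27 and 13.16, against 14.71, 14.89, 15.66, 15.69 and 15.14 in WT. On both probes every double-KO array lay below every WT array, with differences of -1.58 ± 0.13 (adjusted p = 7.0e-07) and -2.70 ± 0.45 (adjusted p = 5.5e-04). The double-KO array of 1 h read 10.08 on probe 3, far below the other double-KO arrays (12.94 to 13.27), and it enters the difference of -2.70. Probe 2 read 10.53, 10.62, 10.94, 10.99 and 11.56, against 10.31, 10.81, 11.51, 11.07 and 11.50 in WT, and the groups overlapped (-0.11 ± 0.11, adjusted p = 0.49). In MyD88-KO cells none of the 3 probes was called (-0.01, 0.07 and -0.19).

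Of 12 structural or small nuclear RNA probes, 6 were higher in double-KO and 8 in MyD88-KO cells, and 0 were lower in either. Over all tested probes 15.3% were higher and 10.6% lower in double-KO cells, and 6.12% and 3.53% in MyD88-KO cells. Rn18s, the 18S ribosomal RNA, read 14.72, 15.43, 16.11, 15.57 and 16.59 in double-KO cells, 14.85, 15.34, 16.03 and 16.62 on the 4 MyD88-KO arrays with untreated RNA in Cy3, and 11.85, 14.04, 14.92, 14.57 and 14.71 in WT cells. The differences were 1.66 ± 0.33 (adjusted p = 0.0022) and 1.67 ± 0.36 (adjusted p = 0.012), and the 1 h arrays of WT and of cells labelled TRIF-KO (12.09) were the lowest of all. Rmrp, the RNA of the RNase MRP enzyme, differed by 0.95 ± 0.23 and 1.26 ± 0.25 (adjusted p = 0.007 and 0.0071), and Rnu1b6, a U1 spliceosomal RNA, by 1.05 ± 0.23 and 1.03 ± 0.25 (adjusted p = 0.0037 and 0.019). The labels name Agilent's Quick Amp kit, which is known to prime from the poly(A) tail, and most of these RNAs carry none; the part of priming in these differences was not tested. The summed level of neutrophil and precursor markers was 16.7 to 17 in MyD88-KO cells, against 15.2 to 15.7 in WT. For double-KO cells it was 15.2 to 16. The single markers did not all differ the same way. Of their 7 tested probes, 5 were higher and 0 lower in untreated MyD88-KO cells than in WT. For double-KO cells 2 were higher and 2 lower. S100a9 had a mean untreated level of 16.5 (MyD88-KO), 14.8 (double-KO) and 14.8 (WT). Ly6g had 8.85, 7.7 and 10.3 in the same order. The part of these markers in these results was not tested.
Among lower members, U90926 read 6.94 to 7.32 in double-KO and 7.03, 6.82, 7.17 and 7.15 in MyD88-KO cells, against 7.31, 7.52, 8.99, 10.19 and 9.77 in WT. The knockout arrays thus lay below all WT arrays except that the highest double-KO array passed the WT 1 h array (-1.63 ± 0.37 and -1.86 ± 0.40, adjusted p = 0.0054 and 0.012). The untreated channel was above background on 4 double-KO, 2 MyD88-KO and 5 WT arrays, so the knockout levels lie at the edge of detection and the sizes of these differences are uncertain. Trmt61b read 8.43 to 9.25 in double-KO cells, against 9.83 to 10.82 in WT (-1.53 ± 0.12, adjusted p = 4.4e-07). RefSeq lists the genes of 41 tested members as protein coding. Of these, 3 were higher and 3 lower in double-KO cells, against 15.3% and 10.6% of all tested probes. 4632415L05Rik, a transcribed pseudogene, read 10.75 to 11.01 in double-KO cells, against 9.40 to 10.14 in WT (1.11 ± 0.10, adjusted p = 2.8e-06).

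**Figure D5:**
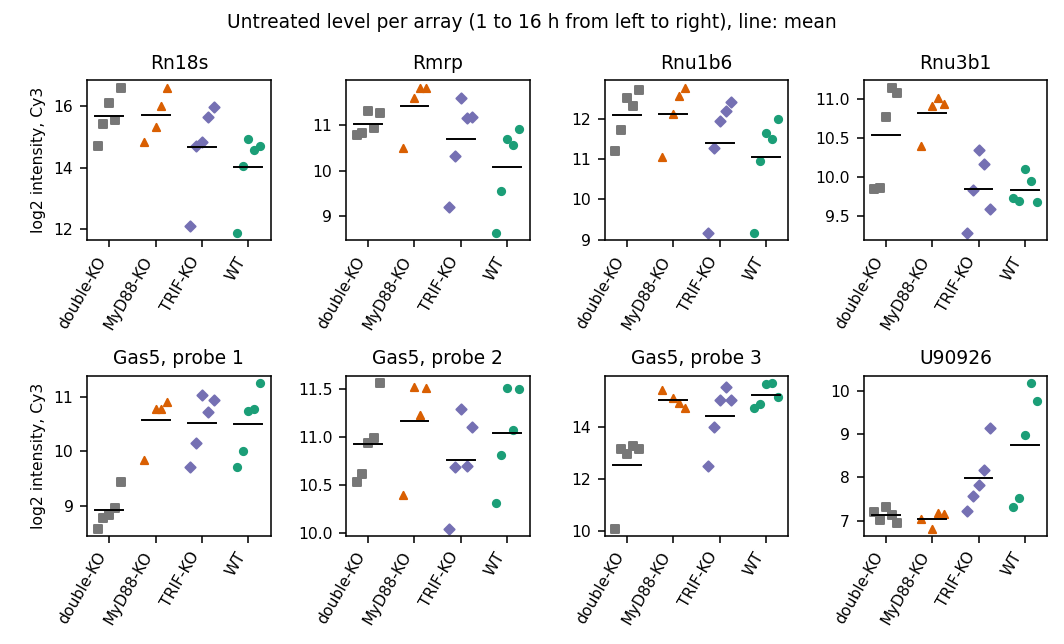
Untreated level (log2 Cy3 intensity, vertical axis) of 4 structural RNAs, the 3 Gas5 probes and U90926 by genotype (horizontal axis), with 1 symbol per array in time order, 1 to 16 h, and the mean as a line. The double-KO arrays are below the WT arrays on Gas5 probes 1 and 3 and mixed with them on probe 2.

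Probes of 1 symbol did not always move together. Of 65 symbols with more than 1 tested probe, 35 had a call in WT: in 7 every probe was called the same way, in 26 some were, and in 2, Smarca5-ps and 9930014A18Rik, probes were called in opposite directions (for example 0.57 and -0.54 for 9930014A18Rik). Which transcript forms each probe reads was not examined.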

How the data were processed

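RNA of mouse macrophages was measured on 20 Agilent two-colour arrays. The deposited scanner files hold, per the file headers, foreground and background intensity and a log10 ratio of red over green for each spot from Agilent Feature Extraction 10.10.1.1, with mm9 probe positions. The deposited series table holds the same log10 ratios as the scanner files. The deposited background and saturation flags were used as given. From the intensities, normexp (offset 50) and loess gave log2 ratios, spots of a probe were averaged, and flagged outlier spots were dropped. Probes well above background on at least 3 arrays (28388 of 39429) were fitted with limma 3.58.1 in R 4.3.3 (lmFit, eBayes) over all 20 arrays, blocked by time point, with Benjamini-Hochberg adjustment over every fitted probe. Untreated levels used the 19 arrays with untreated RNA in Cy3 after Aquantile. Between 57% and 70.5% of spots were above background, and the number of arrays limits the precision. The fits were checked on simulated data. Nothing says that samples are separate mice, so the spread may be technical.

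Members, lists and tests were chosen with earlier results of these data known. Named members were taken from the 10 largest calls each way per response and difference, the 5 largest for slope and untreated level, and the members of 5 lists (snoRNA hosts, miRNA hosts, abundant nuclear, imprinted and immune RNAs). Not every one of these is described above. Members described from outside this choice are marked. Symbols were updated through RefSeq (1080 by accession, 34 by symbol, 24 by synonym, 10 kept). The replicate number is the time point; deviations of same-time arrays correlated at 0.74 to 0.83 for TRIF-KO-labelled and WT ratios, 0.28 to 0.70 for MyD88-KO and WT, and -0.20 to 0.14 for pairs with double-KO. Alternatives were the deposited ratios, scaling, filters, slide, scan day, dye, no block, 1 probe per gene, 2 groups only and each array left out.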

Additional observations from a re-analysis of the deposited data

Results flagged for a closer look

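The differences in LPS response between double-KO and WT cells that passed limma's test are flagged because the 2 genotypes' effects differ by a test of the difference itself. Higher in double-KO than in WT were Olfr75-ps1 by 2.01, Hmga2-ps1 by 1.47, 5031434O11Rik by 0.979, 4921531C22Rik by 0.952, 2310040G24Rik by 0.931, Gm4532 by 0.89, 1600010M07Rik by 0.867, Gm10731 by 0.865, 9330151L19Rik by 0.837 and 2810013P06Rik by 0.814 on the log2 scale. Each of these fell in WT cells. Lower were 4933432I03Rik at -2.4, Gm9895 at -2.22, A130040M12Rik at -2.06, -1.65 and -1.6 on its 3 probes, U90926 at -2.01, Il1bos and Morrbid at -1.93 each, Gm8884 at -1.69 and Creb5 at -1.51, all of which rose in WT cells. Adjusted p-values ran from 6.8e-04 for an A130040M12Rik probe to 0.04 for 5031434O11Rik. In the LPS ratios of named members, no array stood apart from its group in any of the 61 groups of 4 or 5 arrays looked at. A group holds different time points, so its range includes change with time and can hide an odd array. Untreated levels were not looked at in this way. These calls rest on the fit over all 20 arrays with time as a block, and same-time deviations of double-KO and WT ratios correlated at only -0.048 to 0.14. With the arrays of the 2 genotypes alone, 0 of the 20 passed the test (adjusted p from 0.12 to 0.19). Without the time block 7 of the 20 passed, with slide as a random block 3, and with slide as a fixed block 0, of which 6 changed sign.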

How the results depend on the processing

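Counts are of members called by limma, with 222 in MyD88-KO, 156 in TRIF-KO-labelled, 227 in WT and 1 in double-KO cells for the LPS response, 89 for double-KO minus WT, 0 for MyD88-KO and for TRIF-KO-labelled minus WT, 80 for the slope, and 140, 57 and 2 for the untreated level of double-KO, MyD88-KO and TRIF-KO-labelled cells minus WT. The deposited ratios or processed intensities gave 7 for double-KO and 6 for untreated TRIF-KO-labelled cells. Scaling between arrays gave 103 in WT, 130 in MyD88-KO, 67 in double-KO and 1 for untreated TRIF-KO-labelled cells, which also had 1 with no filter, 1 with 1 probe per gene and 1 without the 1 h arrays. Slide as a fixed block gave 40 in MyD88-KO, 53 in TRIF-KO-labelled, 0 in WT and 0 in double-KO cells, 0 for double-KO minus WT, 2 for the slope, and 39, 14 and 0 for the untreated levels. As a random block it gave 133 in MyD88-KO, 121 in WT and 0 in double-KO cells, 6 for double-KO minus WT, and 55, 11 and 0 for the untreated levels. Scan day gave 0 in double-KO and 59, 6 and 8 for the untreated levels. A dye term gave 24 in MyD88-KO, 8 in TRIF-KO-labelled, 19 in WT and 0 in double-KO cells, and 87 for double-KO minus WT. One probe per gene gave 2 in double-KO cells. The double-KO and WT arrays alone gave 0 for their difference. Without the arrays labelled TRIF-KO, chosen after seeing the data, double-KO had 0, double-KO minus WT 32 and the slope 19. Without the arrays of 1 h, also chosen then, double-KO had 0 and MyD88-KO minus WT 5. The causes were not tested.

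The replicate number is the time point and the main fits block on it. With no replicate block, 156 were called in MyD88-KO, 93 in TRIF-KO-labelled, 154 in WT and 1 in double-KO cells, 15 for double-KO minus WT, 0 for the other 2 differences, and 51, 5 and 1 for the untreated levels; the slope has no such version.

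Leaving out 1 array at a time gave 118 to 243 in MyD88-KO, 69 to 119 in TRIF-KO-labelled, 147 to 219 in WT and 0 to 0 in double-KO cells. It gave 27 to 113 for double-KO minus WT, 0 to 12 for MyD88-KO minus WT, 0 to 0 for TRIF-KO-labelled minus WT, 51 to 85 for the slope, and 97 to 162, 21 to 85 and 1 to 4 for the untreated levels.

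Of 2171 alternatives for the 113 values of named members, 1757 kept direction and call, 404 lost the call and 10 changed sign. With slide as a fixed block the WT response became 0.505 for 2610507I01Rik and 0.062 for Gm16523. Double-KO minus WT became -0.563 for 2810013P06Rik, 0.713, 1.34 and 0.189 for the A130040M12Rik probes, 0.747 for Il1bos and 0.897 for Creb5, and the untreated level of U90926 in double-KO minus WT became 0.537. With scan day, that of Gm18852 became 0.263. Dim signal over background limits Il1bos, Mirt2 and U90926 most among the transcripts described.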

Other observations

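Without the 4 arrays of 1 h, a setting chosen after seeing the data, 5 probes differed between MyD88-KO and WT responses: D130020L05Rik by 1.27 ± 0.218 (limma, adjusted p = 0.041), 1700052K11Rik by 1.02 ± 0.183 (adjusted p = 0.045), the 2 probes of 1700110I01Rik by -0.917 ± 0.165 and -1.1 ± 0.176 (adjusted p = 0.045 and 0.036), and I730030J21Rik by -1.44 ± 0.241 (adjusted p = 0.038). In that setting 136 of all tested probes were called. In WT cells, 2 Smarca5-ps probes rose by 0.474 and 0.461 (adjusted p = 0.0066 and 0.0032, limma) and a further one changed by -0.517 (adjusted p = 0.028).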
